A study of Homo sapiens with 36 samples.

Results

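The genes described here lie on the short arm of chromosome 1 beside PHGDH, the enzyme of the first step of serine synthesis from glucose. They were the protein-coding genes with a midpoint on GRCh37 from 80 Mb to just past NOTCH2, at the centromere end of the arm, selected on a mean level of at least 8 CPM (counts scaled to library size) over the 6 untreated wt and cis libraries, and PHGDH itself was left out. MTF1, also left out by the rule, has its midpoint at 38.3 Mb, outside the window. Of 245 protein-coding genes in the window, 127 met the rule, out of 57820 gene rows in the count table. Another 117 fell below the minimum, and 105 of them had a count in at least 1 library. Just under the minimum were MAGI3 (7.42 CPM) and CD58 (7.89 CPM), and just over it AP4B1 (8.50 CPM) and GBP4 (8.55 CPM). The window was proposed with the difference between untreated wt and cis cells already known. Values of that contrast are therefore given as a description, and a member below the minimum in cis cells met it only through its wt level.

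RNA was sequenced from A2780 cells, an ovarian cancer line (wt), from A2780cis cells (cis), a platinum-resistant line raised by long exposure of A2780 to cisplatin, and from cis SSP cells, which grew out of cis cells kept without serine and glycine. Each line was grown with serine and glycine, without carboplatin (untreated) or with it (carbo), or in serine- and glycine-free medium, again without the drug (-SG) or with it (-SG carbo). That gave 12 conditions of 3 libraries, 36 in all. The labels write the carboplatin dose as 6 M, while other assays of the study used µM. Each line is a single culture lineage, and the study describes its RNA-seq triplicates as technical, so p-values measure only the spread between these libraries. Every library held 13074937 to 20441582 counts on genes. Most markers of epithelial and ovarian carcinoma cells were low: PAX8, MUC16, MSLN, CDH1 and EPCAM stayed between 0 and 2.31 CPM in all 36 libraries, and so did the leukocyte genes PTPRC, CD3E and CD14. The epithelial keratins KRT8 and KRT19 reached 6.56 and 7.92 CPM at their highest over the 36 libraries. KRT18 differed between untreated lines, at 0.613 CPM in wt, 17.1 in cis and 10.6 in cis SSP cells, and reached 42.2 CPM at its highest. Fibroblast genes were unequal between lines, with COL1A1 at 162 CPM in wt, 4.02 in cis and 18 in cis SSP cells. DCN stood at 0.490, 0.629 and 24.7 CPM in the same order, and the part of these marker differences in the results was not tested.

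A chromosome arm segment changes many unrelated genes at once when cells lose or gain a copy of it, because transcript levels tend to follow gene dosage. Genes that lie close together can also be switched together through shared chromatin. No DNA data were used here. In bulk RNA, fewer cells at a full level and all cells at a lower level cannot be told apart. The members have little function in common. NRAS and RAP1A are small GTPases of growth signalling, SARS1 charges tRNA with serine, RPL5 is a protein of the large ribosomal subunit, SLC16A1 carries lactate, PSMA5 is a proteasome subunit and NOTCH2 is a signalling receptor.

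Library 25 (cis SSP) and library 32 (cis SSP -SG) stood apart from the other libraries of their conditions. The deviation of library 25 from its partners had a Spearman correlation across genes of -0.611 with exon length, and that of library 32 had -0.608. A similar value, -0.598, was found for library 11 (wt -SG carbo), whose members deviated by a median of only -0.04 on the log2 scale. The members' median deviation was -0.11 in library 25 and -0.09 in library 32. NOTCH2, a gene of long transcripts, read 102 CPM in library 25 against 285 and 268 CPM in its partners. PSMA5 read 312 CPM there against 171 and 168 CPM. Most counts of a single comparison that rest on libraries 25 and 32 are given with and without them, and so are named genes whose call changes. Counts of members called in the carbo, -SG and -SG carbo pairs together include library 32 for cis SSP cells. The test of a difference between the cis SSP and cis responses includes both libraries. These results are given only with them.

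In untreated cells the segment ran lower in cis cells. The median of the members' log2 fold changes of wt over cis was 0.96, against 0.00 for all 14431 genes tested. Of the 127 members, 116 were called higher in wt cells (background 39.1% of all genes) and 9 lower (background 39.4%). Genes were called by the quasi-likelihood test of edgeR when the Benjamini-Hochberg adjusted p, taken over all genes, was below 0.05. A division of chromosome 1 into stretches of like fold change, by least squares, placed this segment from C1orf52 (85.7 Mb) to NOTCH2 (120.5 Mb), 120 genes with a median of 0.99. PHGDH was among these genes. The neighbour outside on the telomere side was SYDE2 (85.6 Mb), with a log2 fold change of 0.22, beside C1orf52 at 0.56 and BCL10, an adaptor of immune signalling, at 1.2. On the other side the next gene at the same minimum was PIAS3 (145.6 Mb), across the centromere on the long arm, at 0.17, followed by POLR3C at -0.60. No gene of the map lay between NOTCH2 and PIAS3, so this edge could not be placed more closely.

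**Figure D1:**
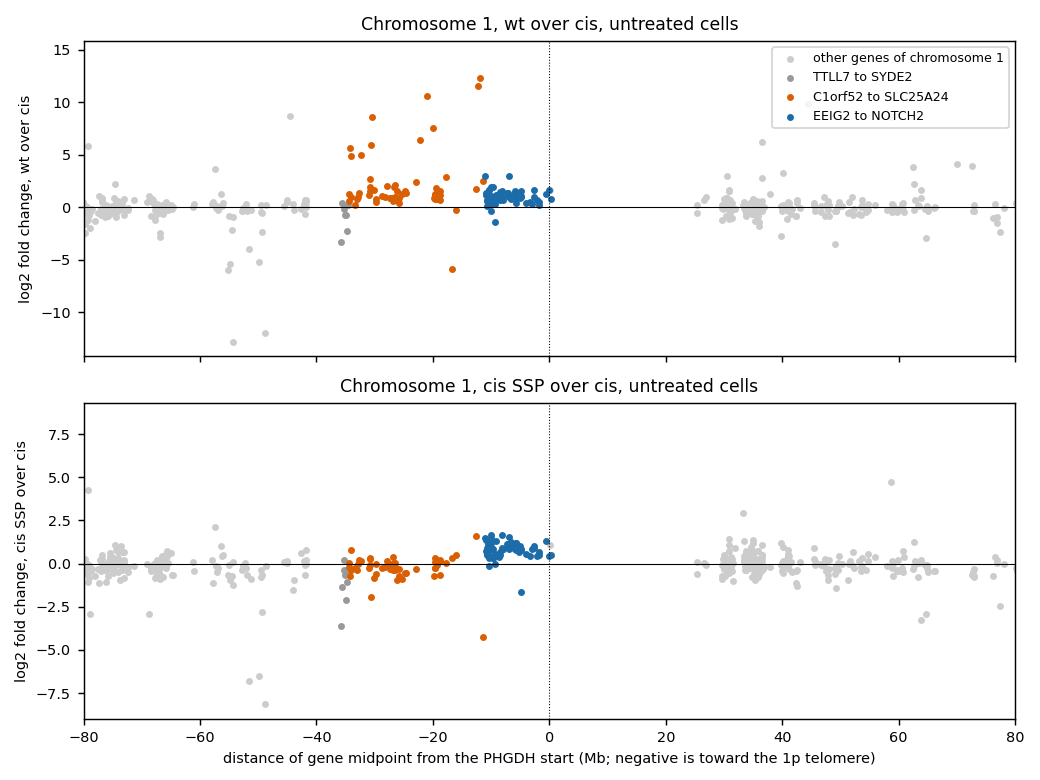
Log2 fold change of every chromosome 1 gene at the 8 CPM minimum within 80 Mb of the PHGDH start, against its distance from that start in Mb, for wt over cis cells (top) and cis SSP over cis cells (bottom), untreated. Orange and blue points together sit mostly above 0 in the top panel, with 113 of these 119 genes called higher in wt, while in the bottom panel the blue points mostly do and the orange ones do not, at a median of 0.85 against -0.23 for the orange ones.

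The 8 members below C1orf52, from TTLL7 to SYDE2, did not share the difference. Their median log2 fold change of wt over cis was -0.46, with 3 called higher in wt and 5 lower, beside the background shares of 39.1% and 39.4%. TTLL7, a tubulin-modifying enzyme, read 2.66, 2.64 and 2.10 CPM in wt and 24.9, 26.2 and 25.4 CPM in cis cells. MCOLN2, an ion channel of endosomes, stood at 6.35 ± 0.762 CPM (SD, n = 3) in wt and 31.4 ± 1.48 CPM in cis cells. Further toward the telomere, below 80 Mb, FUBP1 (78.4 Mb) had a log2 fold change of 0.50 and DNAJB4 one of 0.71.

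The lower level in cis cells was there in the 3 pairs of conditions that the member rule did not use. With carboplatin 106 members were called higher in wt (background 41.6%) and 15 lower (background 40.3%). In -SG medium 111 were higher (40.3%) and 12 lower (40.8%). With both, 103 were higher (37.2%) and 10 lower (37.0%). The medians of the members were 0.96, 1.07 and 1.0, against 0.02, -0.00 and -0.01 for all genes tested. Called higher in wt in all 3 pairs were 95 of 127 members, beside 20.2% of the 14018 genes tested in all 3. Called lower in all 3 were 6 members, beside 20.3% of all genes. GBP4, DPYD, SNX7, FRRS1, NTNG1 and VAV3, with almost no counts in cis cells, met the minimum through their wt level alone. DDAH1, LMO4, CCN1 and EEIG2 were also below the minimum in cis cells. All of these are among the 95 and in the counts and medians above. How many other members were below the minimum in cis cells is not given. The calls of members below the minimum in cis cells were bound up with the member rule and add no support. Cells of the 4 conditions come from the same lines, so these pairs add libraries and not lines.

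The lower edge between SYDE2 and C1orf52 was found again with carboplatin and with carboplatin in -SG medium. In -SG medium alone SYDE2 joined the segment, which then ran to MLLT11 (151.0 Mb) on the long arm. PIAS3 joined it with carboplatin and with carboplatin in -SG medium. PIAS3, a regulator of STAT signalling, had log2 fold changes of wt over cis of 0.48, 1.07 and 1.17 in the carbo, -SG and -SG carbo pairs. POLR3C beside it stayed below 0 in each of them, at -0.35, -0.41 and -0.32. When the fold changes were not limited to a range of -2 to 2, the stretch that holds NRAS began at 109.2 Mb in the untreated, carbo and -SG carbo pairs and at 109.3 Mb in the -SG pair. With genes down to 2 CPM on the map it began at 109.4 Mb in the untreated pair. The lower edge near 85.7 Mb thus depended on these settings.

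In cis SSP cells the segment split into 2 blocks. From EEIG2 to NOTCH2, 60 members next to PHGDH, the median transcript level was back near that of wt cells. From C1orf52 to SLC25A24, 59 members, the median log2 fold change over cis cells was below 0 in every pair. The limit between the blocks was taken from the untreated cis SSP over cis values after they were seen, so the blocks' medians in that pair are a description. They are called the proximal and the distal block below, by their distance from PHGDH.

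The division of chromosome 1 by cis SSP over cis fold changes placed the raised stretch from EEIG2 (109.1 Mb) to NOTCH2 in untreated cells, 61 genes with a median of 0.85. With carboplatin and with carboplatin in -SG medium it ran from EEIG2 to PIAS3, with medians of 0.95 and 0.99. In -SG medium it began at PRPF38B (109.2 Mb), at a median of 0.93. SLC25A24 (108.7 Mb) was the last gene outside in 3 of the 4 pairs and EEIG2 in the other. No other gene at the minimum lay between these 2. With genes down to 2 CPM on the map the stretch began earlier, at 101.7 Mb in the untreated and carbo pairs and at 100.5 Mb in -SG medium.

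Apart from 6 members with too few counts to be tested, 46 were called higher in untreated cis SSP than in cis cells (background 15.8%) and 17 lower (background 13.3%). With carboplatin 72 were higher (34.7%) and 31 lower (34.5%). In -SG medium 54 were higher (21.6%) and 26 lower (23.2%), and with both 70 were higher (37.3%) and 33 lower (36.5%). The proximal block held most of the rise, with 43, 58, 45 and 56 of its 60 members called higher in the same order and 1, 1, 3 and 3 lower. Its medians were 0.85, 0.96, 0.93 and 0.99. In the distal block 3, 14, 9 and 13 of 53 tested members were called higher and 11, 22, 18 and 23 lower. Its medians were -0.23, -0.06, -0.08 and -0.15. Over the carbo, -SG and -SG carbo pairs, 44 proximal and 4 distal members were called higher in all 3, and over the whole window 48 were, beside 14.5% of all genes. Called lower in all 3 were 18 members, beside 12.8% of all genes. They were 12 distal members, 1 proximal one and 5 of the 8 members below C1orf52, which belong to neither block. TTLL7 and MCOLN2 were among these 5, at untreated log2 fold changes of cis SSP over cis of -3.59 and -1.09. These comparisons use the same cis libraries as those with wt cells.

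Leaving out libraries 25 and 32 raised the number of calls. In untreated cells 71 members were then called higher in cis SSP than in cis cells (background 32.9%), 58 of them proximal and 13 distal, and 29 lower (background 32.5%), 1 proximal and 20 distal. In -SG medium 75 were called higher (background 37.0%), 55 proximal and 19 distal, and 34 lower (background 38.5%), 4 proximal and 24 distal. Of the 8 members below C1orf52, all 8 were then called lower untreated, and 6 lower and 1 higher in -SG medium. The proximal medians were 0.91 and 0.97 without these libraries, the distal ones -0.10 and -0.03, and those of the 8 members -0.76 and -0.98.

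Relative to wt cells, the proximal block of cis SSP cells lay close to 0. In untreated cells its median log2 fold change of cis SSP over wt was -0.13, with 6 members called higher and 15 lower, while the distal block had a median of -1.31, with 2 higher and 55 lower. In -SG medium the medians were -0.08 and -1.27, with 9 proximal members higher and 14 lower and 2 distal members higher and 53 lower. Over all 127 members, 9 were higher (background 20.7%) and 72 lower (21.7%) in untreated cells, and 12 were higher (22.2%) and 70 lower (23.9%) in -SG medium. Without libraries 25 and 32, 26 members were higher (36.4%) and 89 lower (37.5%) in untreated cells, and 26 higher (36.4%) and 82 lower (36.6%) in -SG medium. Among the 60 proximal members 22 were then higher and 28 lower untreated, at a median of -0.08, and 22 higher and 23 lower in -SG medium, at a median of 0.00. Single proximal genes were called in both directions, as were all genes at the background shares above, so such calls are not by themselves particular to the block. The block's median did not move far from that of wt cells.

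The same picture held library by library for the proximal block, and in part for the distal one. Each library was given the median over the members of log2 CPM relative to the mean of the untreated wt libraries, with 0.5 CPM added to both. For the proximal block this value was -0.93 ± 0.018 (SD, n = 3) in cis, -0.91 ± 0.015 in cis carbo, -1.0 ± 0.021 in cis -SG and -1.05 ± 0.033 in cis -SG carbo libraries. In cis SSP cells it was -0.07 ± 0.046 untreated, -0.00 ± 0.0075 with carboplatin, -0.00 ± 0.14 in -SG medium and -0.01 ± 0.0013 with both. The lowest proximal value of any cis SSP library, -0.17, belonged to library 32, and the highest of any cis library was -0.90, so the 2 lines did not overlap. For the distal block the 12 cis libraries ran from -1.48 to -1.11 and the 12 cis SSP libraries from -1.51 to -1.08. Over all media the 2 lines thus overlapped, but within -SG medium they did not. There cis libraries ran from -1.48 to -1.43 and cis SSP ones from -1.42 to -1.13. In -SG carbo the ranges were -1.42 to -1.40 and -1.25 to -1.08. Other chromosomes also stood higher in cis SSP than in cis cells there, at 0.04 against -0.08 in -SG and 0.01 against -0.10 in -SG carbo. The 3 other wt conditions had proximal means of -0.06, -0.02 and -0.03 and distal means of -0.21, -0.03 and -0.17. The 849 genes elsewhere on chromosome 1 had condition means between -0.08 and 0.09.

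**Figure D2:**
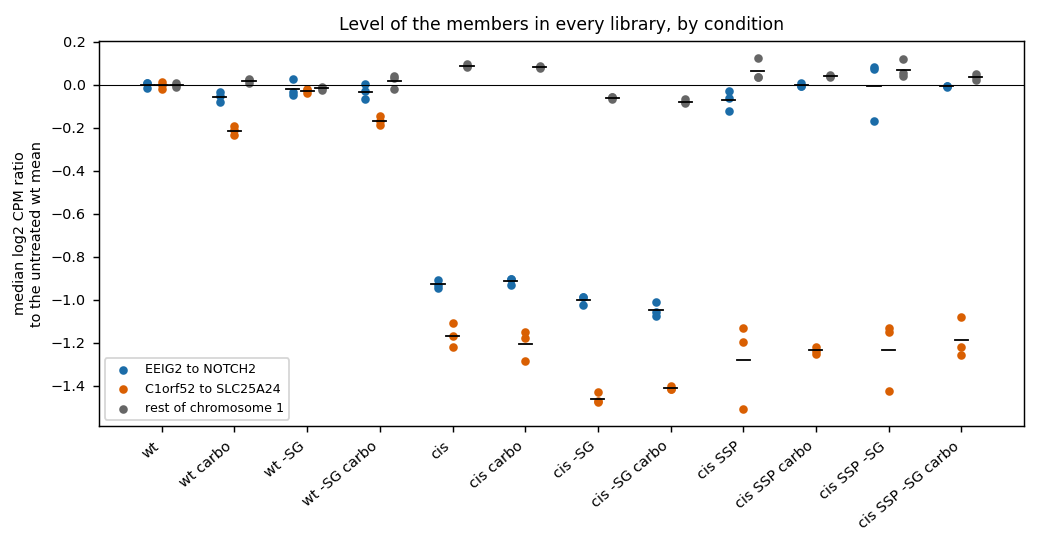
Median over genes of log2 CPM relative to the untreated wt mean, per library, in the 12 conditions, for the proximal block (blue, EEIG2 to NOTCH2), the distal block (orange, C1orf52 to SLC25A24) and the rest of chromosome 1 (grey); points are libraries and bars the means of 3. The proximal block lies at -0.91 to -1.05 in the cis conditions and at -0.07 to 0.00 in the cis SSP conditions, while the distal block lies below -1.07 in every library of both lines.

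Promoter sequences of 4 members are shown because these genes stand for the patterns described next. NRAS is a proximal gene that was lower in cis cells and higher again in cis SSP cells. PRMT6 did the same from within the distal block, and SNX7 and NTNG1 had at most 3 counts per library in both derived lines. The sequences are from RefSeq on GRCh38.p14 and run from 250 bases before to 50 bases after the start of the gene, 5′ to 3′ on its strand, with CG in capitals. NRAS is at chr1:114716722-114717021 (minus strand), PRMT6 at chr1:107056424-107056723 (plus strand), SNX7 at chr1:98661471-98661770 (plus strand) and NTNG1 at chr1:107141085-107141384 (plus strand).
NRAS: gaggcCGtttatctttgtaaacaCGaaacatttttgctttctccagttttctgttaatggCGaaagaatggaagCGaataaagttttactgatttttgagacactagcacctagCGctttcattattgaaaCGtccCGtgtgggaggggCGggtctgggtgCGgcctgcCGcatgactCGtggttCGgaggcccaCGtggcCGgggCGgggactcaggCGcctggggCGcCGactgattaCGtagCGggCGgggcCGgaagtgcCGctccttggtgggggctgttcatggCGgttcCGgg
PRMT6: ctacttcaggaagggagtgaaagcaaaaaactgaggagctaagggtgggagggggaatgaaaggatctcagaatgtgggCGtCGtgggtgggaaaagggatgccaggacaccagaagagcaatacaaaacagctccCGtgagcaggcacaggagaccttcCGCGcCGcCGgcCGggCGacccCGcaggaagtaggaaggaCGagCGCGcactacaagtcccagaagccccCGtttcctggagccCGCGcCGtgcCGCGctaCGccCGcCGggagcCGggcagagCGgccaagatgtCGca
SNX7: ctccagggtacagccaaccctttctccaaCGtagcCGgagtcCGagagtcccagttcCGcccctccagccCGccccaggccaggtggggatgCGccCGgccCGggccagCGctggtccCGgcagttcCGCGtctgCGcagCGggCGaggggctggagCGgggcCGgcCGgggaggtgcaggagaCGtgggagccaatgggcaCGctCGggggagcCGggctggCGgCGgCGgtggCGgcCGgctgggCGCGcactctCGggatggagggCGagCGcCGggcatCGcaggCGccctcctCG
NTNG1: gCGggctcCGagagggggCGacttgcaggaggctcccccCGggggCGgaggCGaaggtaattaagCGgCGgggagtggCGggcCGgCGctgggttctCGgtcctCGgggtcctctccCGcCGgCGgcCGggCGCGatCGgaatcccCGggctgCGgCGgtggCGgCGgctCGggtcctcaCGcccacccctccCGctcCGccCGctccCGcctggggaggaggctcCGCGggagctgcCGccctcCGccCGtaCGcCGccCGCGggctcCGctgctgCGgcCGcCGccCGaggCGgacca

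CG, the pair of bases that can carry DNA methylation, occurred 25 times in the NRAS sequence, 25 in PRMT6, 36 in SNX7 and 46 in NTNG1. Of the 127 members, 112 had an entry, with a median of 27 CG pairs against 16 over all 27195 genes listed. At least 20 were found in 93 of the member promoters (83.0%), against 44.9% of all promoters of this length. The members had to reach a minimum level and the listed genes did not, and no promoters of other genes at that minimum were compared. The difference is therefore not shown to be particular to the segment. The other members at 3 counts or fewer in every untreated cis library had 4 (FRRS1), 3 (GBP4) and 1 (VAV3). These members thus included both CG-rich and CG-poor promoters. A count of CG says nothing of whether the bases were methylated.

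Most proximal genes of growth signalling were lower in cis than in wt cells and higher again in cis SSP cells. NRAS (chr1:115247090-115259392) read 155, 159 and 153 CPM in wt, 80.7, 71.5 and 78.3 CPM in cis and 130, 141 and 146 CPM in cis SSP cells. No cis library reached the levels of either other line, and the cis SSP libraries lay below all wt libraries. The log2 fold change of wt over cis was 1.04 ± 0.03 (SE) untreated and 1.59 ± 0.04 (adjusted p = 3.7e-19) in -SG medium. That of cis SSP over cis was 0.84 ± 0.11 (adjusted p = 0.0028) untreated and 1.38 ± 0.11 (adjusted p = 0.00025) in -SG medium. Against wt cells NRAS was at -0.21 ± 0.10 in cis SSP cells, which was not called (adjusted p = 0.15). Without library 25 it was called lower than in wt cells, at -0.15 (adjusted p = 3.1e-05).

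GNAI3, an inhibitory G protein subunit, read 113, 113 and 112 CPM in wt, 55.2, 52.7 and 57.5 CPM in cis and 112, 105 and 103 CPM in cis SSP cells. RAP1A stood at 43.3 ± 1.54, 22.3 ± 0.524 and 40.9 ± 3.91 CPM in the same order. NOTCH2, at the centromere end, had 256, 263 and 253 CPM in wt and 155 CPM in each of the 3 cis libraries. Its cis SSP over cis fold change was not called in untreated cells (0.49 ± 0.38, adjusted p = 0.37), where library 25 lay below the cis libraries and its partners above them. Without library 25 it was called, at 0.85. It was called in the 3 other pairs, at 0.66, 1.39 and 0.91. Of the 14 members listed under growth signalling, 11 were called higher in wt than in cis cells in all 3 pairs with a treatment and none lower. Beside these stood 95 of all 127 members and 20.2% of all genes called higher. All 6 members of that list called higher in cis SSP cells in all 3 pairs were proximal, out of 7 proximal ones. Of all 60 proximal members 44 were so called, and 14.5% of all genes.

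SLC16A1, the lactate and pyruvate carrier MCT1, read 303, 299 and 297 CPM in wt, 157, 153 and 154 CPM in cis and 283, 309 and 302 CPM in cis SSP cells. Its cis SSP over cis fold changes were 0.93, 0.98, 0.76 and 0.95 across the 4 pairs, all called. PSMA5 was called higher in cis SSP than in cis cells in all 4 pairs, at 1.09, 0.97, 1.65 and 1.54. Its 2 untreated cis SSP libraries other than library 25 stood at 171 and 168 CPM, between the cis and the wt values. DCLRE1B, the Apollo nuclease that protects telomeres and acts in crosslink repair, went from 17.2 ± 0.739 CPM in cis to 39.1 ± 4.70 CPM in cis SSP cells, with 32.8 ± 2.67 CPM in wt cells.

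SARS1 (chr1:109756540-109780804), which joins serine to its tRNA, lies in the proximal block and followed it only in part. It stood at 284 ± 3.29 CPM in wt, 169 ± 3.63 in cis and 212 ± 43.2 CPM in cis SSP cells. Wt over cis fold changes were 0.77, 0.62, 0.56 and -0.05, the last one not called (adjusted p = 0.46). Cis SSP over cis fold changes were 0.30 and 0.33 in the untreated and -SG pairs, neither of them called, then 0.22 with carboplatin, called higher, and -0.25 with both, called lower. Without libraries 25 and 32 the first 2 were 0.16 and 0.18, both called higher. On withdrawal of serine and glycine SARS1 rose within each line. The log2 fold change was 0.55 in wt and 0.75 in cis cells, both called, and 0.77 in cis SSP cells, not called. The part of this response in the values between lines was not tested.

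**Figure D3:**
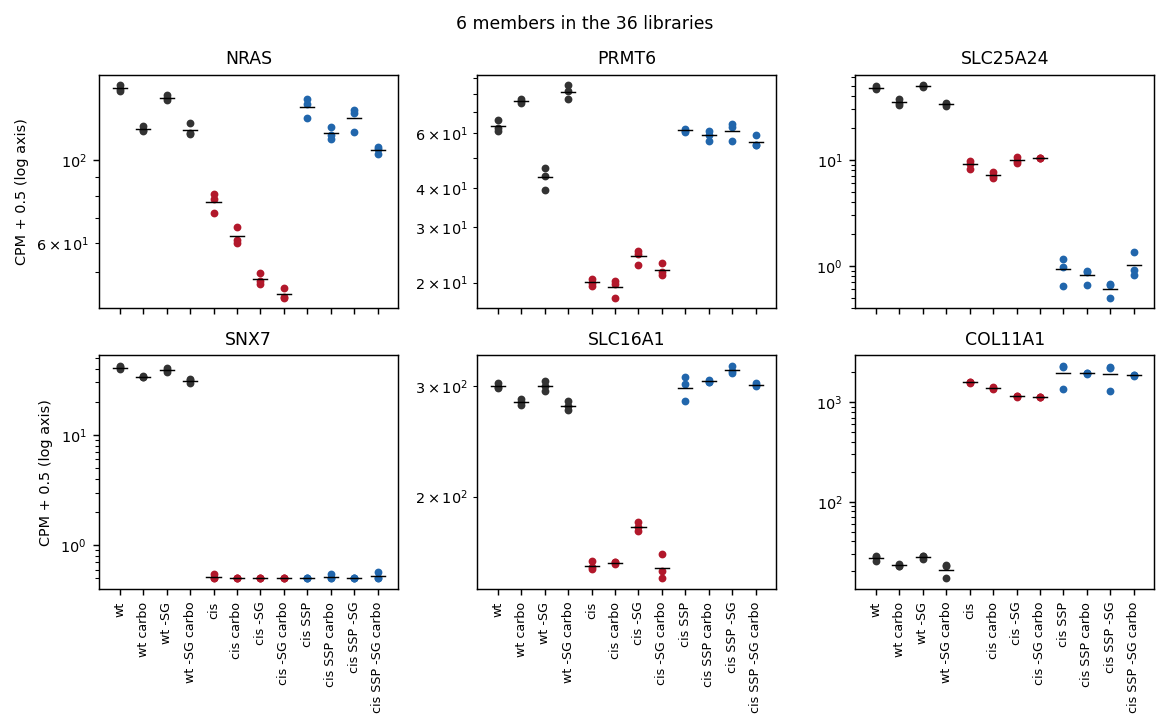
CPM plus 0.5 on log axes for 6 members in the 36 libraries, with 3 points and their mean in each of 12 conditions; wt is black, cis red and cis SSP blue. NRAS and PRMT6 are lowest in cis cells, SLC16A1 is lowest in cis cells too, SLC25A24 falls further in cis SSP cells, SNX7 is at 0 or near it in both derived lines, and COL11A1 is higher in both.

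At the boundary between the blocks, neighbouring genes went opposite ways. SLC25A24, the mitochondrial ATP-Mg/phosphate carrier (chr1:108676665-108743471), read 47.1, 49.1 and 46.3 CPM in wt, 7.70, 8.61 and 9.29 CPM in cis and 0.147, 0.483 and 0.656 CPM in cis SSP cells. Its 3 untreated cis SSP libraries held 22 counts in all, against 446 in cis cells. The log2 fold change of cis SSP over cis was -4.24 ± 0.33 (adjusted p = 0.00043). EEIG2 (chr1:109102711-109187522), the next gene at the minimum, read 35.3, 34.8 and 32.8 CPM in wt, 4.37, 4.49 and 4.40 CPM in cis and 8.81, 14.6 and 13.6 CPM in cis SSP cells. It was called higher in cis SSP than in cis cells at 1.47 untreated and 2.03 with carboplatin, and was not called in -SG medium (0.33 ± 0.20, adjusted p = 0.24), though it was without library 32, at 0.52. PRPF38B, a splicing factor beside it, had 102, 96.5 and 103 CPM in wt, 47.0, 45.5 and 46.5 CPM in cis and 77.7, 78.9 and 80.9 CPM in cis SSP cells.

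PRMT6, an arginine methyltransferase (chr1:107599296-107610258), lies in the distal block and followed the proximal one. It read 60.4, 65.6 and 61.9 CPM in wt, 19.5, 19 and 20.1 CPM in cis and 60.6 ± 0.771 CPM (SD, n = 3) in cis SSP cells. The log2 fold change of cis SSP over cis was 1.62 ± 0.09 (adjusted p = 0.00012), and that of cis SSP over wt was -0.09 ± 0.09 (adjusted p = 0.42). Between PRMT6 and EEIG2 lie NTNG1, VAV3 and SLC25A24, all at or near 0 in cis SSP cells.

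At most 3 counts in every untreated cis library were found for 5 members, GBP4, SNX7, FRRS1, NTNG1 and VAV3. SNX7, a sorting nexin of endosomes, had 702, 759 and 773 counts in wt, 0, 1 and 0 in cis and 0 in each cis SSP library. VAV3, a guanine nucleotide exchange factor, had 595, 634 and 629 counts in wt cells and 0 in all 6 untreated cis and cis SSP libraries. Against a floor of 3 counts per library, wt cells were at least 232-fold higher for SNX7, at least 193-fold for VAV3, at least 124-fold for FRRS1, at least 118-fold for the axon guidance gene NTNG1 and at least 97.8-fold for the interferon-induced GTPase GBP4. GBP4, SNX7, NTNG1 and VAV3 were at or under this floor in all 8 cis and cis SSP conditions. DPYD, the first enzyme of pyrimidine breakdown, was so in 7 of them, with 14 counts in the untreated cis libraries together.

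Apart from GBP4, these genes lay in 2 stretches, picked out after their values were seen. From DPYD to FRRS1 (chr1:97543299-100232191) 21 genes of any kind were annotated, and together they had 1770 to 1937 counts per library in wt, 5 to 12 in cis and 6 to 8 in cis SSP cells. From NTNG1 to VAV3 (chr1:107682629-108507802) 4 annotated genes had 969 to 1023 counts in wt, 0 to 3 in cis and 1 to 6 in cis SSP cells. FRRS1 had 12 counts in the untreated cis SSP libraries together.

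Other distal genes were far lower in cis than in wt cells. CCN1, a matrix protein induced by growth factors, read 141, 142 and 140 CPM in wt, 4.83, 5.35 and 4.45 CPM in cis and 10.4, 7.37 and 8.04 CPM in cis SSP cells. It was called higher in cis SSP than in cis cells untreated (0.79) and with carboplatin (1.30), and lower in -SG medium (-0.88) and with both (-0.54). LMO4, a transcriptional adaptor, read 108, 111 and 107 CPM in wt and 3.26 to 4.62 CPM over the untreated libraries of both derived lines. DDAH1, which breaks down methylated arginine, was at 40.6 ± 1.10 CPM in wt, 0.827 ± 0.211 in cis and 0.508 ± 0.149 CPM in cis SSP cells. CDC7, a kinase that fires replication origins, stood at 69.3 ± 0.854, 36.6 ± 0.738 and 32.8 ± 1.70 CPM in wt, cis and cis SSP cells. RPL5 read 905, 877 and 879 CPM in wt and 513, 521 and 552 CPM in cis cells. In cis SSP cells it had 563 and 571 CPM, and 932 CPM in library 25, and the difference from cis cells was not called (adjusted p = 0.22). Without library 25 it was called higher, at 0.11.

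Some distal genes were lower in cis SSP than in cis cells. LRRC8D, a subunit of the volume-regulated anion channel, read 49.2, 46.9 and 50.4 CPM in wt, 35.2, 34.5 and 36.8 CPM in cis and 19.8, 24.5 and 27.3 CPM in cis SSP cells. It was called lower in cis SSP than in cis cells in all 4 pairs, at -0.59, -0.39, -1.19 and -0.81. Between wt and cis cells it was called higher in wt untreated (0.48), not called with carboplatin (0.03) or in -SG medium (0.04), and called lower with both (-0.42). GCLM, the regulatory subunit of the enzyme that limits glutathione synthesis, stood at 53.4 ± 2.00 CPM in wt, 41.4 ± 0.545 in cis and 25.1 ± 1.15 CPM in cis SSP cells. It was called lower in cis SSP than in cis cells in all 4 pairs, while against cis cells wt cells were higher in 3 pairs and lower in -SG medium (-0.39). In all 3 treated pairs 4 of the 5 distal members of the transport list were called lower in cis SSP than in cis cells, and 3 of the 4 proximal ones higher. Beside these, 12 of 53 tested distal members were lower and 44 of 60 proximal ones higher, with 12.8% and 14.5% of all genes. The list is short and was made with earlier results known, so its counts are not shown to be particular to transport.

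The members called higher in cis than in wt cells in all 3 treated pairs were TTLL7, SSX2IP, LPAR3 and MCOLN2 below C1orf52, and COL11A1 and RNPC3 in the distal block. COL11A1, a fibrillar collagen chain (chr1:103342023-103574428), read 25.2, 27.4 and 27.7 CPM in wt, 1581, 1600 and 1620 CPM in cis and 1359, 2325 and 2289 CPM in cis SSP cells. Its untreated cis SSP over cis change was not called (0.30), and was called without library 25 (0.54). The log2 fold change of wt over cis was -5.88 ± 0.03, and it lay between -5.94 and -5.44 in the 3 treated pairs. RNPC3, a protein of the minor spliceosome, differed less, at -0.29 untreated and -0.46, -0.63 and -1.31 in the treated pairs. Its gene body overlaps AMY2B on the same strand, so its values are uncertain. LPAR3, a receptor for lysophosphatidic acid, had 24.1, 26.5 and 25.3 CPM in wt, 40.7, 42.6 and 43.6 CPM in cis and 9.62, 11 and 9.13 CPM in cis SSP cells.

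Every list of members by role held genes called lower in cis than in wt cells. Of 23 members of RNA and protein synthesis 18 were called higher in wt in all 3 treated pairs, of 16 of adhesion, cytoskeleton and membrane traffic 13, of 15 of metabolism 11, of 10 of replication, repair and mitosis 5, of 9 of membrane transport 6, and of 2 of ubiquitin and proteasome 2. In the same lists, only COL11A1 was called lower in all 3. For RNA and protein synthesis all 12 distal members were called higher in wt in all 3 pairs and 6 of the 10 proximal ones. In cis SSP over cis cells, 6 of these proximal members and none of the distal ones were called higher in all 3. The background shares for such calls were 20.2% and 14.5%, as above, and 20.3% for genes lower in wt. Of all 127 members 95 were called higher in wt in all 3 pairs.

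PHGDH read 472 ± 14 CPM in wt, 151 ± 4.36 in cis and 319 ± 75.5 CPM in cis SSP cells, a log2 fold change of 1.66 for wt over cis and 1.06 for cis SSP over cis, beside proximal medians of 0.95 and 0.85. Cis SSP over cis values of PHGDH were 0.55 with carboplatin, 1.56 in -SG medium and 0.93 with both, beside proximal medians of 0.96, 0.93 and 0.99. With carboplatin the wt level was 177 ± 4.16 CPM, and the log2 fold change of wt over cis was 0.47 with the drug and -0.04 with the drug in -SG medium, while the proximal medians were 0.89 and 0.98.

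Other chromosomes were compared by the median of their genes at the same minimum. Between wt and cis cells chromosome 13 stood out, with medians of 0.93, 0.75, 0.87 and 0.71 in the untreated, carbo, -SG and -SG carbo pairs. Chromosome 8 was lowest, between -0.45 and -0.36. Between cis SSP and cis cells the highest median of a chromosome was that of chromosome 19, at 0.12 to 0.31, and the lowest that of chromosome 8, at -0.46 to -0.35.

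Treatment within a line moved single members both ways and left the median of the members near 0. With carboplatin in wt cells 44 members rose and 65 fell (background 77.8% called in either direction), with a median of -0.09. CSF1, the macrophage growth factor, rose by a log2 fold change of 3.87 ± 0.03, and CTTNBP2NL by 1.99 ± 0.04. GPSM2 and PSRC1, which act at the mitotic spindle, fell by 2.62 ± 0.09 and 2.29 ± 0.06 on the log2 scale, and LPAR3 fell by 2.32 ± 0.09. In cis cells 7 rose and 14 fell (background 20.1%), and the highest log2 fold change called was 0.37, for ZNF697. These 21 calls fell to 12 without library 14, to 4 by DESeq2 and to 2 in one fit over the 36 libraries. The steepest fall was that of GSTM2, by 0.63 ± 0.17, a glutathione transferase gene with close paralogs beside it. A test of the difference between the 2 responses called 86 of 127 members (background 57.6%), 39 with a higher value in wt and 47 with a lower one. It was 3.72 ± 0.11 for CSF1 (adjusted p = 9.0e-36) and -2.42 ± 0.13 for GPSM2 (adjusted p = 7.8e-23). For NRAS it was -0.07 (adjusted p = 0.23).

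In cis SSP cells 6 members were called with carboplatin (background 2.72%), and 59 without library 25 (background 41.2%). Leaving out any other of these libraries gave 0 or 1 calls. The 6 were CTTNBP2NL, CSF1, CCN1, GCLM and KCNC4, which rose, and GSTM2, which fell. Only CSF1, at 1.09 ± 0.11, and CTTNBP2NL, at 1.32 ± 0.20, rose by more than 1 on the log2 scale.

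Without serine and glycine 30 members rose and 41 fell in wt cells (background 49.2%), and 39 rose and 50 fell in cis cells (background 75.0%). The medians were -0.03 and -0.04. In wt cells LRIG2 (0.66 ± 0.06) and SYDE2 (0.65 ± 0.05) rose most, and RBMXL1 and PRMT6 fell most, by 0.63 ± 0.04 and 0.55 ± 0.05. RBMXL1 shares its locus with KYAT3. In cis cells LMO4 rose by 1.89 ± 0.11, DDAH1 by 1.69 ± 0.26 and CCN1 by 1.25 ± 0.11 from their low levels, and NRAS fell by 0.63 (adjusted p = 1.4e-16). PSRC1 fell by 1.21 ± 0.07. In cis SSP cells edgeR called 0 of 119 members (background 0.0218%), with 6 at an unadjusted p-value under 0.05, while DESeq2 called LMO4 and MOV10. Without libraries 25 and 32 edgeR called 42 (background 35.9%). The difference between the cis SSP and cis responses was called for 24 members (background 17.1%), and 6 of 127 were not tested. Among those called were CCN1 (-1.66 ± 0.22, adjusted p = 0.00068) and NRAS (0.55, adjusted p = 0.013).

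**Figure D4:**
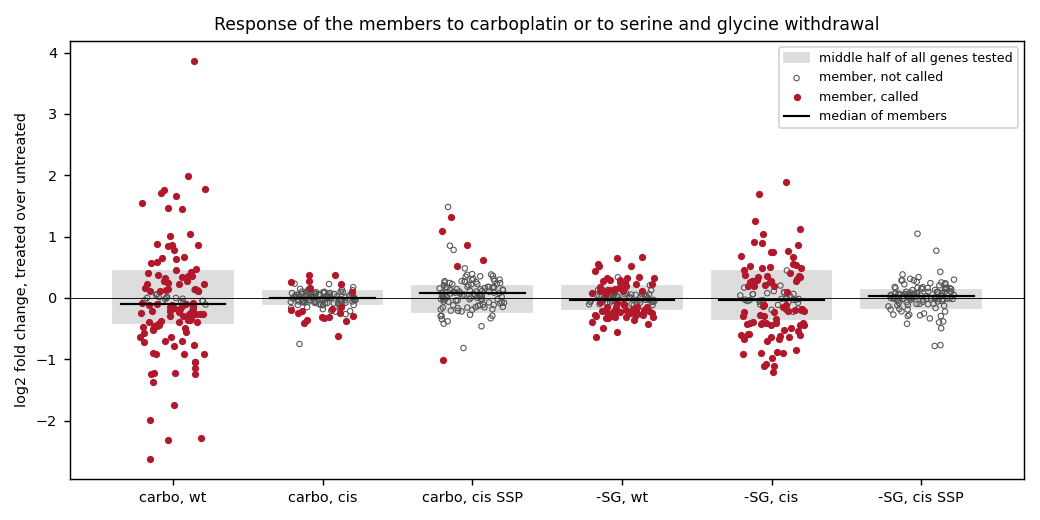
Log2 fold change of each tested member on treatment, by line, for carboplatin (left 3 columns) and withdrawal of serine and glycine (right 3 columns); filled points were called, black bars are the members' medians and grey bands the interquartile range of all genes tested. The medians lie between -0.09 and 0.08 in all 6 columns, and the widest spread, from -2.62 to 3.87, is that of wt cells with carboplatin.

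Beside the protein-coding members, 2 other genes of the window met the same minimum. The lncRNA ENSG00000258634 in the proximal block had log2 fold changes of 1.12 for wt over cis and 1.10 for cis SSP over cis in untreated cells. DNAJA1P5, a processed pseudogene of a heat shock protein gene within OLFM3, had 2.64 and -3.86. OLFM3 itself, a secreted glycoprotein gene, stood at 214 CPM in wt, 29.8 in cis and 30.5 CPM in cis SSP cells, and reads of the pseudogene and its parent gene may not be separable.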

How the data were processed

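The authors aligned single-end reads with STAR to GRCh37.p13 and counted reads on exons with HTSeq and GENCODE 19; the deposited values are raw counts per gene, 1 column for each of 36 libraries. Multiple alignments and strand were not given in the sources used here. Reads on no feature made up 4.21% to 17.9% of a library, and at most 9.31% outside libraries 23 and 24 (cis -SG carbo). The 3 rows that name no gene were left out. The range of total counts is in the report, and intervals or floors from counts cover counting error only.

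Symbols and coordinates came from GENCODE 44 lifted to GRCh37, which matched 55538 of 57820 rows. Each comparison was fitted on its own 6 libraries with edgeR 4.0.16 in R 4.3.3 (TMM, filterByExpr, robust quasi-likelihood F test), with Benjamini-Hochberg adjustment over all genes tested. The study's methods name DESeq2, which served as the alternative (version 1.42.0). CPM used TMM factors over the 36 libraries. Each fold change is on the log2 scale of the fit and follows the order first over second. The division of chromosome 1 minimised squared error by dynamic programming, with at least 5 genes a stretch, values limited to -2 to 2 and a penalty of 3 times variance times log gene number. Both steps were tried on simulated data, with no library standing apart and a single raised stretch. Those runs do not cover libraries that stand apart or edges that shift with the settings.

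The members and lists were chosen with earlier results of these data known. Named genes were members with known roles, the 4 largest and 4 smallest mean wt over cis fold changes in the treated pairs, those against the segment's direction in all 3, genes at the edges and limits, and the 2 strongest called members per direction in each response. OLFM3, DNAJA1P5, FRRS1, DPYD, ENSG00000258634, KCNC4, MOV10, MLLT11, AMY2B and KYAT3 were named after their values were seen. The difference tests between responses, the division into proximal and distal blocks and the choice of promoters were added after seeing the data. Alternatives covered normalization, filters, DESeq2, a joint fit, the CPM minimum and each library left out. Some of the genes under this rule are not reported here.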

Additional observations from a re-analysis of the deposited data

Results flagged for a closer look

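Wt and cis cells responded unequally to carboplatin at 12 of the members named for a response, by edgeR's quasi-likelihood test of the difference itself, beside 57.6% of all genes. These members were named for strong responses to either treatment, in libraries that overlap with these, so the count is no independent evidence. The 12 are those with a called difference, and the number named in all is not given. The count therefore cannot be set against the share of all genes. The difference, wt minus cis, was 3.72 for CSF1, 1.84 for CTTNBP2NL, 1.38 for ZNF697, 1.29 for CCN1, 1.26 for DDAH1, 0.33 for RBMXL1 and 0.30 for PRMT6 on the log2 scale. It was -2.42 for GPSM2, -2.32 for LPAR3, -2.06 for PSRC1, -0.86 for GSTM4 and -0.83 for SORT1. PSRC1, for example, changed by -2.29 in wt and -0.24 in cis cells. RBMXL1, which overlaps KYAT3, and GSTM4, which has close paralogs, are uncertain.

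The response to withdrawal of serine and glycine differed between cis SSP and cis cells for 7 such members, NRAS included, beside 17.1% of all genes. Here too the members were chosen for their responses, other than NRAS, and the count cannot be set against the share of all genes. The difference, cis SSP minus cis, was 1.12 for SORT1, 0.98 for GPSM2 and 0.55 for NRAS. It was -1.66 for CCN1, -0.96 for CSF1, -0.82 for LMO4 and -0.80 for ZNF697. CCN1 changed by -0.42 in cis SSP cells, which was not called, and by 1.25 in cis cells. These values include libraries 25 and 32, which stood apart, and their part in them was not tested.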

How the results depend on the processing

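No paired analysis was possible because the labels give no replicate numbers within a condition. Of the values for member counts, medians and edges, 260 stayed close to the value reported under the other settings and 65 moved. Close meant a count within a fixed ratio, a median within the spread between libraries, or the same gene at an edge. For cis SSP over cis in -SG medium, 54 members with all libraries and 75 without libraries 25 and 32 thus passed as close. Fits with 1 library left out were not part of this tally. Of the values for named genes, 4316 kept their call, 93 lost it, 62 gained it and 0 changed direction.

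For wt over cis the median of the members moved with carboplatin to 0.98 (DESeq2 size factors), 0.91 (total counts), 0.95 (one fit over 36 libraries), 1.04 (minimum of 1 CPM) and 0.98 (20 CPM). In -SG medium it was 1.12 in one fit and 1.02 at 1 CPM. With both it was 0.87 on total counts, 0.93 without libraries 23 and 24 and 1.06 at 20 CPM. For cis SSP over cis it was 0.37 with carboplatin on total counts and 0.37 at 20 CPM, 0.52 in -SG medium without libraries 25 and 32 and 0.54 at 20 CPM, and with both 0.34 on total counts and 0.38 at 1 CPM. The proximal median was 0.91 untreated without libraries 25 and 32, 0.92 (total counts) and 0.94 (one fit) with carboplatin, and with both 0.85 (total counts), 0.94 (without libraries 23 and 24), 0.93 (1 CPM) and 1.02 (20 CPM). The distal median with both was -0.29 on total counts and -0.059 in one fit.

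Members called higher in untreated cis SSP than in cis cells numbered 71 without libraries 25 and 32. Calls with carboplatin in cis cells numbered 4 by DESeq2 and 2 in one fit, and in cis SSP cells 59 without libraries 25 and 32, 28 in one fit and 3 at 20 CPM. Calls in -SG medium numbered 29 in one fit for wt cells, and for cis SSP cells 2 by DESeq2, 42 without libraries 25 and 32 and 15 in one fit.

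The wt over cis stretch that holds NRAS ran from 109.4 to 151.0 Mb (map minimum of 2 CPM), 85.9 to 115.3 Mb (20 CPM) and 109.2 to 151.0 Mb (values not limited) in untreated cells. With carboplatin it ran from 85.5 to 151.0 Mb (2 CPM), ended at 120.5 Mb (20 CPM) and ran from 109.2 to 120.5 Mb (not limited). In -SG medium it began at 109.3 Mb (not limited). With both it ran from 85.5 to 120.2 Mb (2 CPM), ended at 118.5 Mb (20 CPM) and began at 109.2 Mb (not limited). The cis SSP over cis stretch began at 101.7 Mb (2 CPM) or 109.2 Mb (20 CPM) untreated and with carboplatin, ending at 120.5 Mb (20 CPM) with the drug. In -SG medium it ran from 100.5 to 155.3 Mb with a larger penalty and from 100.5 to 120.5 Mb at 2 CPM, ended at 120.5 Mb at 20 CPM and began at 109.1 Mb (not limited). With both it ended at 120.5 Mb at 2 CPM, and ran from 109.2 to 120.5 Mb at 20 CPM. The cause of these shifts was not tested.

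Leaving out 1 library at a time gave 116 to 117, 105 to 106, 110 and 101 to 107 members called higher in wt than in cis cells in the untreated, carbo, -SG and -SG carbo pairs, with medians of 0.94 to 0.98, 0.94 to 0.97, 1.05 to 1.09 and 0.97 to 1.05. For cis SSP over cis the counts were 31 to 71, 70 to 72, 39 to 75 and 70 to 72, and the medians 0.26 to 0.39, 0.39 to 0.45, 0.42 to 0.52 and 0.46 to 0.54. Proximal counts were 29 to 58, 58, 34 to 55 and 56, and proximal medians 0.79 to 0.91, 0.95 to 0.98, 0.88 to 0.97 and 0.96 to 1.03. Distal medians were -0.23 to -0.10, -0.08 to -0.04, -0.14 to -0.03 and -0.18 to -0.10. Members lower in cis SSP than in wt cells numbered 61 to 89 untreated and 63 to 82 in -SG medium. Calls with carboplatin numbered 106 to 109, 12 to 17 and 0 to 59 in wt, cis and cis SSP cells, and in -SG medium 62 to 75, 86 to 90 and 0. In the untreated and -SG pairs the highest counts for cis SSP over cis and over wt came without library 25 or 32. Genes near the floor of 3 counts are limited by depth.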
